A study of Drosophila melanogaster with 2 samples.

Results

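The chemoreceptor genes of Drosophila melanogaster were taken as every protein-coding gene of the Ensembl annotation whose symbol is Or, Gr or Ir followed by a digit, with Orco added to the Or family. This gave 180 genes of the 13945 protein-coding genes on the chromosome arms, 60 in each of the 3 families. The choice used symbols alone and no measured value. Peak lists carry no expression levels, so the families could be checked by symbol and not by the cells that use them.

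The peaks come from chromatin immunoprecipitation followed by sequencing (ChIP-seq) of the transcription factor Fer2 in whole embryos aged 6 to 24 h. The embryos were of a transgenic line that stably expresses Fer2 with green fluorescent protein (GFP) joined to its C terminus, and the antibody was directed at GFP. Chromatin was sheared by sonication to 200 to 800 bp. The 2 samples, biological replicates 3 and 2, form 1 group, and no input or untagged sample was analysed. What drives the fusion gene, and in which cells it is made, is not given in the sources used here. Whole embryos mix all cell types, so a site bound in few cells and a site bound weakly in many cannot be told apart. With 1 group of 2 samples no test of a difference was possible, and all shares set beside each other are descriptions.

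Chemoreceptors are the membrane proteins with which sensory neurons of the fly detect chemicals. Odorant receptors (Or) are ion channels that work together with the shared co-receptor Orco. Gustatory receptors (Gr) serve taste neurons for sugars and bitter compounds, and a few detect carbon dioxide. Ionotropic receptors (Ir) are relatives of the ionotropic glutamate receptors, detect acids, amines, humidity and temperature, and work with co-receptors such as Ir25a, Ir8a, Ir76b and Ir93a. Each receptor gene is usually active in a small class of neurons, and many of the genes lie in tandem. Fer2 is a basic helix-loop-helix factor, known for its role in dopaminergic neurons of the fly brain, and factors of this class recognise E-boxes (CANNTG).

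Few chemoreceptor genes had a peak near them. A gene was counted when a summit lay in it or within 1 kb, and a summit was said to be at a transcription start site (TSS, or start) when the nearest start of any gene was within 500 bp. The authors thresholded 1 list by the irreproducible discovery rate (2862 peaks). In this thresholded list, 9 of 180 chemoreceptor genes had a peak (5.0%), against 3224 of 13945 protein-coding genes (23.1%). The 9 were 3 Or, 3 Gr and 3 Ir genes, 5.0% of each family. This equal split depended on the range of 1 kb. At 500 bp there were 0 Or, 1 Gr and 3 Ir genes, and at 5 kb 5 Or, 16 Gr and 12 Ir genes. The receptor genes are short, with a median length of 1692 bp against 2166 bp for all protein-coding genes. Among the 2880 genes whose length lay between the quartiles of the receptor genes (1378 and 2250 bp) the share was 20.9%.

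**Figure D1:**
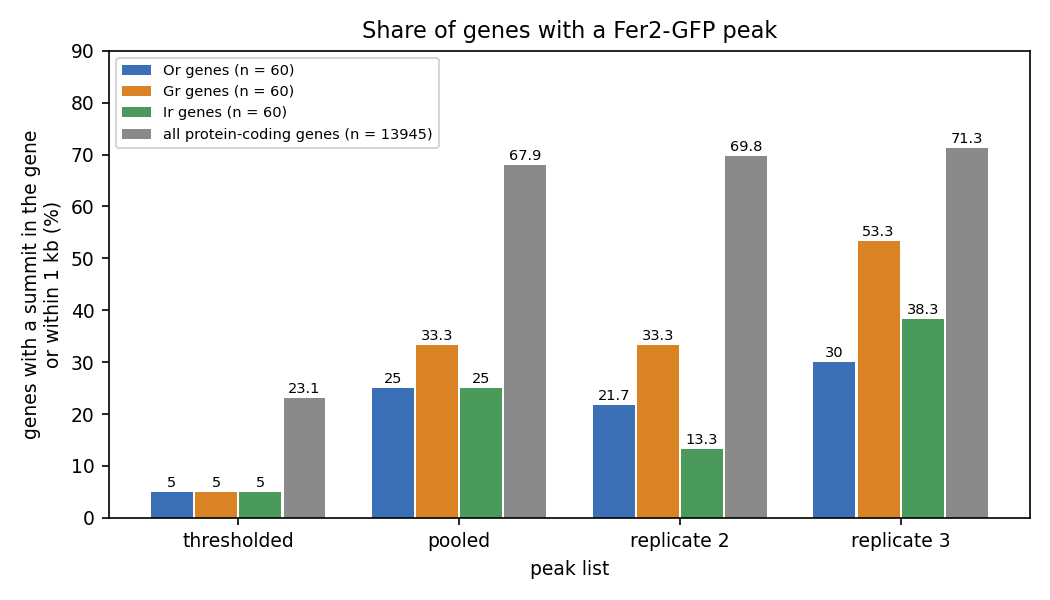
Percentage of genes (vertical axis) with a summit in the gene or within 1 kb in each of the 4 deposited lists, for the Or, Gr and Ir genes and for all protein-coding genes; the number above each bar is its height. Each receptor family stays under all protein-coding genes in each list, and the Ir bar shows the widest gap between replicate 2 (13.3%) and replicate 3 (38.3%).

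None of the 180 receptor genes held a thresholded summit at its own start with that start as the nearest, against 1501 of 13945 genes (10.8%). When a summit was allowed to be nearer to another gene's start, 1 receptor gene (0.556%), Ir60e, had a thresholded summit within 500 bp of its own start, against 15.9% of all genes. When each summit was given to the protein-coding gene with the nearest start at any distance, 3 receptor genes received one (1.67%), namely Gr89a, Orco and, from 4872 bp away, Ir94a, against 2239 genes (16.1%). None of the 9 summits lay inside a receptor gene: 5 lay upstream of its start and 4 past its 3' end. For 7 of the 9 (77.8%) the nearest start was that of a neighbouring gene that is no chemoreceptor, at 35 to 473 bp, and the remaining 2 had no start within 500 bp. Across all protein-coding genes with a thresholded peak, 46.6% had one at their own start, 37.2% at another gene's start only and 16.2% at no start.

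**Figure D2:**
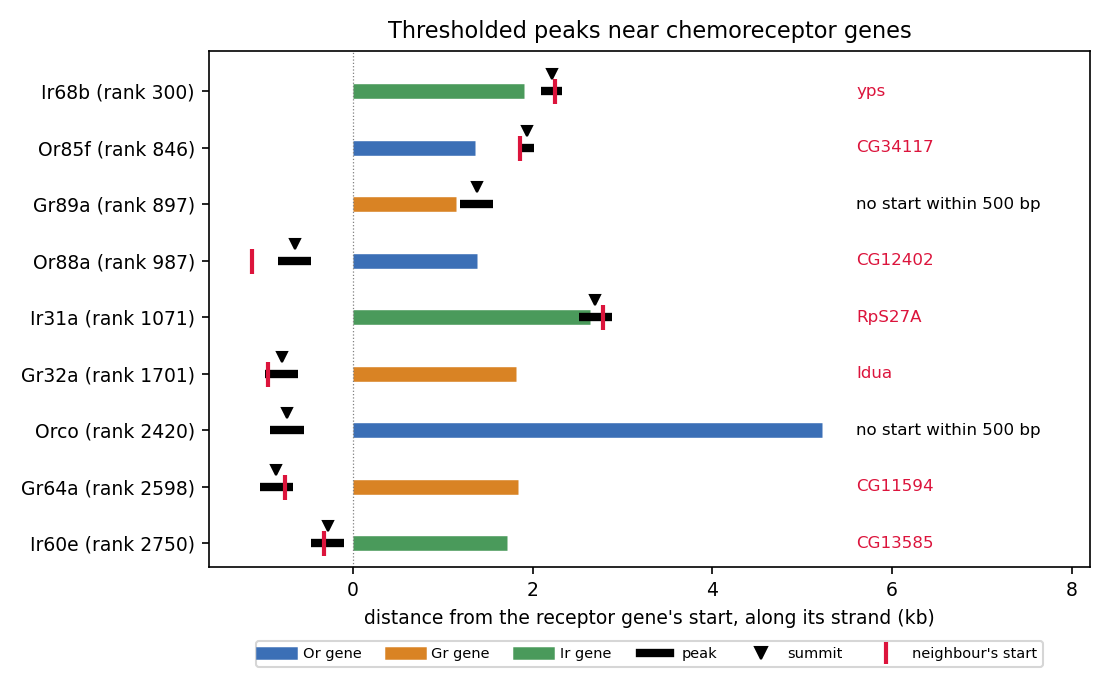
Positions of the 9 thresholded peaks (black bars, with a triangle over each summit) relative to the start of the chemoreceptor gene (coloured bar), in kb along that gene's strand, with the peak's rank in the list beside the gene name. Red ticks mark the start of the neighbouring gene named in red at the right; no peak summit falls on a coloured bar, and the peaks of Gr89a and Orco have no start within 500 bp.

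The Or genes with a thresholded peak were Orco, Or85f and Or88a. Orco (FBgn0037324, chromosome 3R, 5407183 to 5412406, minus strand) encodes the co-receptor that the other odorant receptors need. Its peak (3R, 5412957 to 5413326) ranked 2420 of 2862, with its summit 736 bp upstream of the start. The signal value, the authors' own score whose scale is not stated, was 86.2 in the pooled list, 38.1 in replicate 2 (rank 2728) and 49.6 in replicate 3 (rank 2325). The summits of the replicates lay 1 bp and 43 bp from the pooled one. No gene covers this summit, the nearest start is that of Orco itself, and the nearest start of a gene that is no receptor, CG14669, lies 1385 bp away. Orco had a further pooled peak in its coding sequence at rank 29732. Or88a (FBgn0038203, 3R) encodes a receptor of trichoid sensilla. Its peak, rank 987, lay 651 bp upstream of its start and 473 bp from the start of CG12402, with signal values of 155 in the pooled list, 61.7 in replicate 2 and 88.3 in replicate 3. In replicate 2 that summit was 536 bp from the start of CG12402 and so counted as at no start. The peak of Or85f (FBgn0037685, 3R), rank 846, lay 577 bp past its 3' end and 75 bp from the start of CG34117, with signal values of 171, 72.5 and 97.9 in the pooled, replicate 2 and replicate 3 lists.

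The Gr genes were Gr89a, Gr32a and Gr64a. Gr89a (FBgn0038440, 3R, 16497817 to 16498959, minus strand) and Gr32a (FBgn0041246, 2L) are used by bitter-sensing neurons, and Gr64a (FBgn0045479, 3L) encodes a sugar receptor. The Gr89a peak (3R, 16497398 to 16497767), rank 897, had its summit 234 bp past the 3' end and 1376 bp from the gene's start. It is intergenic, and the nearest start of a gene that is no receptor, that of the cadherin gene Cad89D, lies 2161 bp away. Its signal value was 165 in the pooled list, 52.6 in replicate 2 (rank 1622) and 111 in replicate 3 (rank 666). The Gr32a peak, rank 1701, lay 795 bp upstream of Gr32a and 158 bp from the start of Idua, the fly relative of a lysosomal iduronidase, with signal values of 109, 50.9 and 63.5 in the pooled, replicate 2 and replicate 3 lists. The Gr64a peak, rank 2598, lay 856 bp upstream of Gr64a inside the 5' UTR of CG11594, 98 bp from the start of that gene, with signal values of 81.6, 38.8 and 43.0. Of the 3 peaks, that of Gr89a was thus the one at no start.

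Sequences are shown for the summits that belong to no other gene's start, those of Orco and Gr89a, and for the Ir31a start, the highest pooled summit within 500 bp of a receptor gene's own start with that start as the nearest. The summit near Or85f is added as one with a neighbour's start beside it. Each is the plus strand of the dm6 build from the RefSeq Release 6 assembly, 5' to 3', 101 bases centred on the summit. Capitals mark E-boxes (CANNTG) in the Ir31a window and the homeodomain core TAATTA in the Gr89a and Or85f windows; the Orco window held neither, nor CGATA.
Orco, chr3R:5413092-5413192: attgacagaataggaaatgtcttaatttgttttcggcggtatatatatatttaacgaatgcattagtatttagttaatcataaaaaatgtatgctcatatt
Gr89a, chr3R:16497533-16497633: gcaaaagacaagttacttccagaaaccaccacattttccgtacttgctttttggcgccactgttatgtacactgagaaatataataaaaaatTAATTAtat
Or85f, chr3R:9400078-9400178: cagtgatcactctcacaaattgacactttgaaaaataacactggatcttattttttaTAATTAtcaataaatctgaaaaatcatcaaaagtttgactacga
Ir31a start, chr2L:10405430-10405530: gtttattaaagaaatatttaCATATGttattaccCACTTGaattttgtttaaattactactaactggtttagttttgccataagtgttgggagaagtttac

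The windows of Orco, Or85f and the Ir31a start are rich in A and T, with GC contents of 24.8%, 26.7% and 26.7%, and that of Gr89a had 32.7%. The 9 thresholded windows near receptor genes had a mean GC content of 36.2% ± 11.4 (SD over peaks), against 32.4% ± 9.3 for all 2862. An E-box was in 2 of the 9 (22.2%), against 32.4% of all thresholded windows, and these 2 were the windows near Gr64a and Ir60e, which belong to neighbours' starts. The homeodomain core TAATTA was in 2 of 9 (22.2%), those shown for Gr89a and Or85f, against 11.5%. The word CGATA, the site of the boundary factor BEAF, was in 2 of 9 (22.2%), near Ir68b and Ir60e, against 15.5%. The longer element TATCGATA (DRE), which contains CGATA, was in none of the 9 and in 1.64% of all. Both strands were searched. Over the 73 pooled summits near receptor genes the E-box share was 38.4%, against 39.9% of all pooled windows, and the CGATA share was 20.5%, against 13.0%. The TAATTA share there was 5.48%, against 7.13%, so it was under that of all windows, unlike in the thresholded list. By start, an E-box was in 9 of 19 pooled windows at a receptor gene's own start (47.4%), in 8 of 15 at a neighbour's start (53.3%) and in 11 of 39 at no start (28.2%), against 37.3% of all pooled windows at a start and 41.0% of those at none. CGATA was in 21.1%, 26.7% and 17.9% of these 3 classes, against 18.3% of all pooled windows at a start and 10.8% at none. Of the 73 summits 46.6% were at a start, against 28.9% of all pooled summits. Whether this mix accounts for the CGATA share was not tested. A word in a window is a description and does not show that a factor binds there.

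The Ir genes were Ir68b, Ir31a and Ir60e, and each of their thresholded peaks belonged to a neighbour's start. The highest peak near any chemoreceptor gene, rank 300, lay 302 bp past the 3' end of Ir68b (FBgn0036250, 3L) and 35 bp from the start of yps, which encodes a Y-box RNA-binding protein. Its signal value was 293 in the pooled list, 94.1 in replicate 2 (rank 584) and 203 in replicate 3 (rank 186). The peak of Ir31a (FBgn0051718, 2L, 10405565 to 10408197, plus strand), a receptor of antennal coeloconic sensilla, ranked 1071 and lay 64 bp past its 3' end and 91 bp from the start of RpS27A, which encodes a ribosomal protein made as a ubiquitin fusion. Its signal values were 147, 60.7 and 87.5 in the pooled, replicate 2 and replicate 3 lists. The peak of Ir60e (FBgn0035019, 2R, 24529554 to 24531272, minus strand), rank 2750, lay 283 bp upstream of Ir60e and 39 bp from the start of CG13585, which runs the other way. It was the one thresholded peak that had a receptor gene's start within 500 bp as well.

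Ir60e was also the one of the 9 whose peak differed widely in rank between the replicates. Its signal value was 15.0 in replicate 2 (rank 12716) and 64.9 in replicate 3 (rank 1600). The other 8 peaks ranked between 584 and 2728 in replicate 2 and between 186 and 2829 in replicate 3, and their replicate summits lay 1 to 207 bp from the pooled one. With the 2862 highest peaks of replicate 2 alone, Ir60e had no peak and Gr63a, one of the carbon dioxide receptors, took its place. With the 2862 highest peaks of replicate 3 alone, the 9 genes were the same as in the thresholded list.

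**Figure D3:**
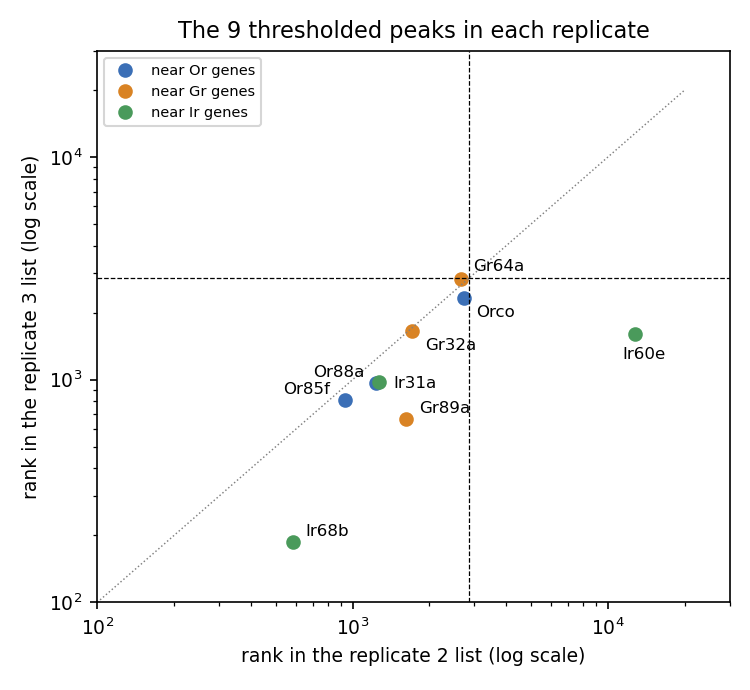
Rank of the highest overlapping peak in the replicate 2 list (horizontal, log scale) and the replicate 3 list (vertical, log scale) for each of the 9 thresholded peaks, coloured by family; the dotted line marks equal ranks and the dashed lines rank 2862, the length of the thresholded list. Ir60e lies at rank 12716 in replicate 2, and the other 8 points lie inside both dashed lines.

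Receptor genes were split by whether a neighbour starts close by. For 39 of the 180 a protein-coding gene that is no chemoreceptor starts in the gene or within 1 kb, 13 in each family, and 6 of the 39 had a thresholded peak (15.4%), against 3 of the other 141 (2.13%). Among all protein-coding genes the share was 30.6% of the 8616 with another gene's start in range and 11.1% of the 5329 without. Among genes of the receptor genes' middle lengths the share was 29.3% of 1762 and 7.78% of 1118. In both classes the receptor genes stayed under the share of all genes. The 3 receptor genes without such a start in range and with a peak were Gr89a, Orco and Or88a. The same was done for receptor genes in tandem and alone. The 26 stretches that join 2 or more receptor genes by their 1 kb ranges hold 73 genes, of which 1 had a thresholded peak (1.37%), against 8 of the 107 lone genes (7.48%). This split was not taken apart from that by neighbours' starts, and it was not made over all protein-coding genes. The stretch with the most genes, the 6 sugar receptor genes from Gr64a to Gr64f, had that 1 peak at its edge, in the leader of CG11594. The 5 genes from Ir7c to Ir7g had no peak in any of the 4 lists.

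Receptor genes also lay farther from thresholded peaks. The distance from the gene to the nearest thresholded summit had a median of 27.3 kb (quartiles 9.28 and 60.8 kb), against 8.54 kb for all protein-coding genes (1.36 and 26.9 kb). It was 41.3 kb for Or, 25.2 kb for Gr and 23.5 kb for Ir genes. The summit was over 10 kb away for 133 receptor genes (73.9%), against 46.8% of all genes. The nearest miss of the 1 kb range was Or9a, named for that distance, with a summit 1018 bp upstream at rank 1370, which lay 42 bp from the start of Neb-cGP. By chromosome arm, thresholded peaks were near 4 of 43 receptor genes on 3R, against 25.2% of all protein-coding genes there, and near 2 of 35 on 3L, against 23.5%. They were near 2 of 31 on 2L, against 22.5%, near 1 of 46 on 2R, against 22.4%, and near 0 of 25 on X, against 21.6%.

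The longer lists reached more receptor genes, with peaks of low rank. In the list called on the pooled replicates (30000 peaks), 50 receptor genes had a peak (27.8%), against 67.9% of all protein-coding genes. These were 15 Or genes (25.0%), 20 Gr genes (33.3%) and 15 Ir genes (25.0%). The best pooled rank had a median of 15266 over the 50 receptor genes and 5299 over all genes with a pooled peak. Going down the list, the first 10000 peaks reached 15 receptor genes (8.33%), against 46.3% of all genes, and the first 20000 reached 36 (20.0%), against 60.0%. Between ranks 2862 and 10000 no further Ir gene was reached, while the Gr genes went to 8 and the Or genes to 4. The replicates did not share this order of the families. The first 10000 peaks reached 5 Or, 9 Gr and 2 Ir genes in replicate 2, and 6, 4 and 7 in replicate 3. A pooled summit was at the gene's own start for 16 receptor genes (8.89%; 5 Or, 6 Gr and 5 Ir genes), against 40.4% of all genes. Over the ground covered by the genes and their 1 kb ranges there were 9.64 pooled summits per 100 kb near receptor genes (10.8 for Or, 15.9 for Gr and 5.81 for Ir genes), against 24.8 near all protein-coding genes. The Ir value is lowered by long genes: Ir41a (104437 bp) and Ir40a (24851 bp), with no pooled peak, are part of the 361.3 kb covered for Ir genes.

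**Figure D4:**
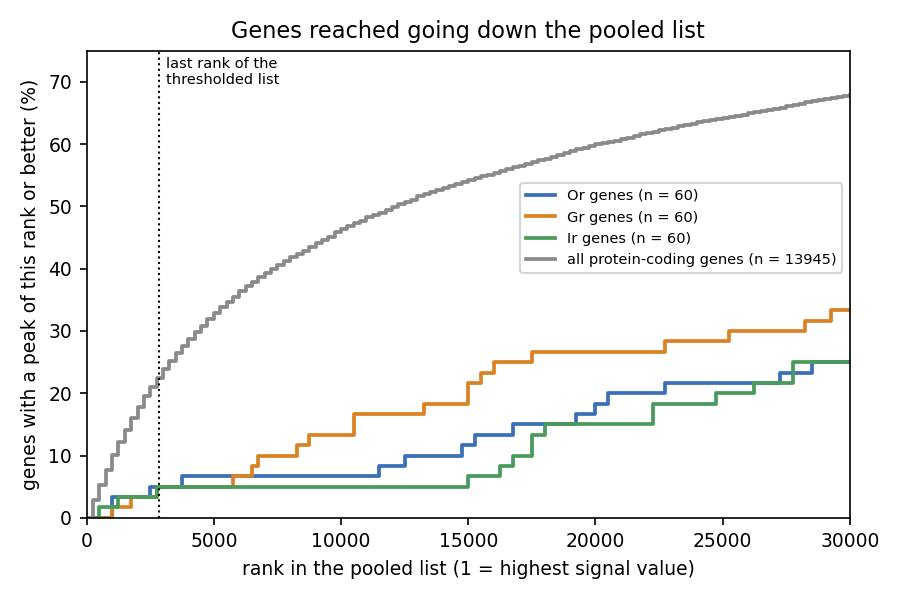
Percentage of genes (vertical axis) with a peak of a given rank or better in the pooled list (horizontal axis, rank 1 has the highest signal value), for Or, Gr and Ir genes and all protein-coding genes; the dotted line is the last rank of the thresholded list. The receptor families stay under all protein-coding genes along the whole list and end at 25.0% (Or), 33.3% (Gr) and 25.0% (Ir), against 67.9%.

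The replicates differed in how many receptor genes they reached. Replicate 2 had a peak near 41 of them (22.8%; 13 Or, 20 Gr and 8 Ir genes), against 69.8% of all protein-coding genes, and replicate 3 near 73 (40.6%; 18 Or, 32 Gr and 23 Ir genes), against 71.3%. The Gr family had the highest count in both full lists. The Or count was above the Ir count in replicate 2 and below it in replicate 3. The gap between the replicates for Ir genes, 8 against 23, was wider than any gap between families in the pooled list. Of the receptor genes with a peak, 30 had one in both replicates, which is 73.2% of those of replicate 2 and 41.1% of those of replicate 3. For all protein-coding genes the 8354 shared genes were 85.8% and 84.0%. Part of the surplus of replicate 3 lay in introns: 14 of its 104 summits near receptor genes were intronic, against 2 of 58 in replicate 2. The intronic share of all peaks was counted for neither list, so a difference between the whole lists is not told apart. Ir41a, the longest of the 180 genes at 104437 bp, and Ir40a each had 4 peaks in replicate 3 and none in replicate 2 or the pooled list, at best ranks of 23595 for Ir41a and 23889 for Ir40a. Neither replicate list had a peak near 96 receptor genes (53.3%), against 18.8% of all protein-coding genes. No peak was near 92 receptor genes in any of the 4 lists (38 Or, 20 Gr and 34 Ir genes), among them Or13a, Or19a, Or19b, Gr22c, Gr22e, Gr28a, Ir11a, Ir48c and Ir51b. Over all protein-coding genes that share was not counted, and it is at most the 18.8% with no peak in either replicate list.

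The 73 pooled summits near receptor genes fell into 3 classes that differed in rank and in how often the replicates shared them. At a receptor gene's own start there were 19 (26.0%), with a median rank of 19147. At a neighbour's start there were 15 (20.5%), with a median rank of 3668. At no start there were 39 (53.4%), with a median rank of 22013. A peak of each replicate overlapped 1 of the 19 at an own start (5.26%), 14 of the 15 at a neighbour's start (93.3%) and 12 of the 39 at no start (30.8%). Of the other 18 at an own start, replicate 2 alone overlapped 8, replicate 3 alone 6, and neither 4. Across all pooled peaks the replicates shared 63.8% of the 8673 at a start and 42.1% of the 21327 at none. The median ranks of these were 9851 and 16788. The neighbour class thus ranked higher than all peaks at a start, and its sharing was not compared at equal rank. Rank moves with sharing. Beyond rank 10000 the replicates shared 1 of 17 peaks at receptor genes' own starts (5.88%), against 36.7% of all 4297 pooled peaks at starts. The 1 shared peak was that of Gr77a, 271 bp upstream of its start, at rank 23824. By family, the own-start, neighbour and no-start counts were 5, 3 and 15 for Or genes, 8, 7 and 14 for Gr genes, and 6, 5 and 10 for Ir genes. A peak upstream of Or10a also lay within 1 kb of Gr10a, since these genes overlap, and was counted once, with Or10a.

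**Figure D5:**
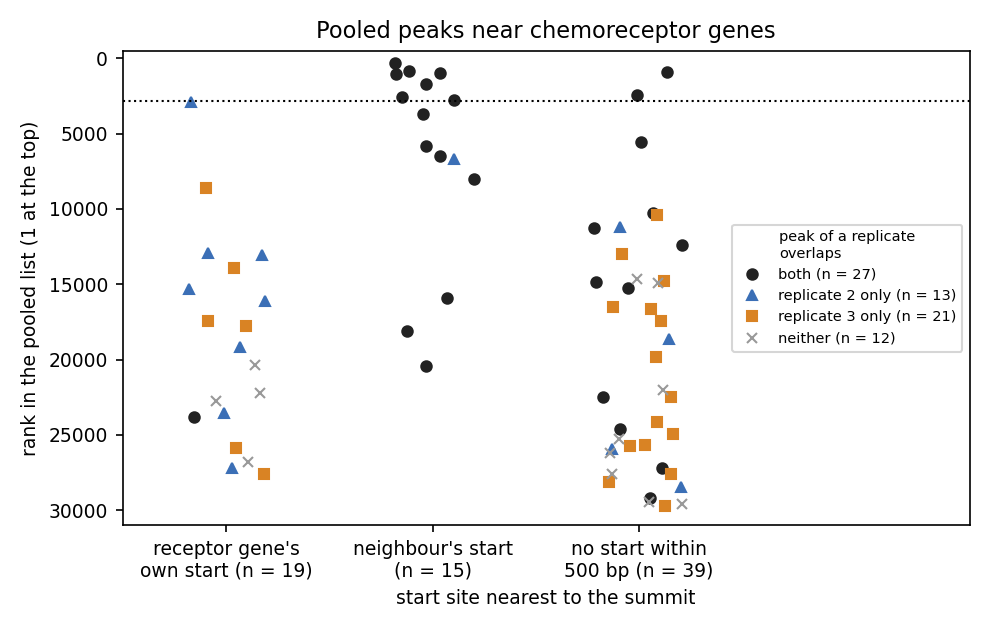
Rank in the pooled list (vertical axis, rank 1 at the top) of the 73 summits near chemoreceptor genes, split by whether the nearest start within 500 bp is the receptor gene's own, a neighbour's or none (sideways spread within a class is only for legibility); symbols show which replicates have an overlapping peak, and the dotted line is rank 2862. Peaks at neighbours' starts sit towards the top and nearly all are shared by both replicates, while those at own starts sit mostly under rank 10000 and 1 of 19 is shared.

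The replicate lists gave the same split in part. In replicate 2, 15 of the 58 summits near receptor genes were at an own start, 20 at a neighbour's start and 23 at none. The share at any start was 60.3%, against 32.2% of all replicate 2 peaks. In replicate 3, 22 of 104 were at an own start, 19 at a neighbour's start and 63 at none. The share at any start was 39.4%, against 26.8% of all replicate 3 peaks. The highest in both was that near Ir68b at the start of yps.

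The highest pooled summit at a receptor gene's own start was that of Ir31a, shown above, 85 bp upstream at rank 2923, just past the end of the thresholded list (2L, 10405295 to 10405664). Its signal value was 74.1, against 75.7 for the lowest thresholded peak. The start of CG17768 lies 277 bp from the same summit. The overlapping peak of replicate 2 (rank 6029, signal value 23.4) had its summit 220 bp away, in the 5' UTR of Ir31a, and no peak of replicate 3 overlapped. Ir31a had 4 pooled peaks in all, at ranks 1071, 2923, 13025 and 18627. Of the 19 own-start summits, 4 had the start of a gene that is no receptor within 500 bp too.

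Among receptor genes with no thresholded peak, the 5 of each family with the highest pooled peak had these values. In the Or family the highest was near Or71a, a receptor of the maxillary palp, at rank 3668, 19 bp from the start of Plp, which encodes a pericentrin-like centrosomal protein. Its signal value was 62.2 in the pooled list, 20.8 in replicate 2 and 38.0 in replicate 3. Or42b, Or67a, Or63a and Or45b followed at ranks 11278, 12426, 14634 and 15234, each at no start. No replicate peak overlapped that of Or63a. In the Gr family the peak of Gr22d ranked 5548, 715 bp past its 3' end and at no start, with signal values of 46.2, 30.4 and 25.6 in the pooled, replicate 2 and replicate 3 lists. The peaks near Gr59f (rank 6479), Gr63a (rank 6708) and Gr97a (rank 8003) were at the starts of AIMP3, which encodes a factor of the tRNA synthetase complex, Lamtor4, which encodes a lysosomal scaffold subunit, and CG5521. In the Ir family the first was Ir68a, a receptor for moist air, at rank 14784 past its 3' end, and the next was Ir21a, a receptor for cooling, at rank 16141, 77 bp upstream of its own start. The peak of Ir85a (rank 16667) was in its coding sequence. A peak at rank 17460 was near both Ir94d, where it was in the coding sequence, and Ir94e, 943 bp upstream.

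Of the 5 co-receptor genes, Orco alone had a thresholded peak. Ir25a had a pooled peak in its coding sequence at rank 27615 (signal value 16.3). A replicate 3 peak at rank 20859 overlapped it, and no replicate 2 peak did. The replicate 2 peak near Ir25a, at rank 18797, lay 994 bp upstream. The pooled peak (rank 9084) and replicate 3 peak (rank 8569) that overlap it had summits outside the 1 kb range. Ir8a had a peak in the replicate 2 list only, at rank 24877. Ir76b and Ir93a had none in any list. The carbon dioxide receptors Gr21a and Gr63a, which work as a pair, both had a pooled peak at their own start. That of Gr21a was in its 5' UTR at rank 8636 (signal value 34.1), with an overlapping peak in replicate 3 only, at rank 16090. That of Gr63a was 10 bp upstream at rank 12907 (signal value 26.3), beside the higher peak at the start of Lamtor4. A single replicate 2 peak at rank 2603, with its summit at the Lamtor4 start, overlapped both, and no replicate 3 peak did. Of 9 sugar receptor genes 1 had a thresholded peak and 2 a pooled one, the second being Gr5a at rank 15909, 8 bp from the start of Tre1, which encodes a G-protein-coupled receptor. Of 7 bitter receptor genes 2 had a thresholded and 4 a pooled peak, of 13 antennal Ir genes 1 and 5, and of 23 Or genes known from the larva 0 and 5. These counts are small, and the share of all protein-coding genes, 23.1% in the thresholded and 67.9% in the pooled list, was above that of each of these lists in the thresholded list but for the bitter receptors (28.6%), and in the pooled list but for the 2 carbon dioxide receptors.

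Genes around chemoreception that are not receptors of these families were set beside them. All 8 regulators of receptor choice examined had a pooled peak, against 67.9% of all genes, and 3 a thresholded one (37.5%, against 23.1%). Of these 3, Xbp1, a bZIP factor, had its peak at its own start at rank 256, and zf30C, a zinc finger factor, at its own start at rank 1141, while sim, a bHLH-PAS factor, had one at no start at rank 520. The POU factor genes acj6 and pdm3, which set odorant receptor choice, had their best pooled peaks at ranks 11729 and 14974. These peaks lay 14280 and 15493 bp from the genes' own starts. The 8 regulators were not matched for length to the receptor genes. Of the 3 sense organ fate genes, amos and ato had no peak in any list, and lz had a pooled peak at rank 8125. Of the 9 glutamate receptor genes, the relatives of the Ir family, 1 had a thresholded peak and 6 a pooled one (66.7%, against 67.9% of all genes). The thresholded one was Nmdar2, at rank 1374, at the start of another gene. Of 52 odorant-binding protein genes 2 had a thresholded peak (3.85%) and 12 a pooled one (23.1%). These shares were near those of the receptor genes and under those of all genes. The measure at the own start was less alike. A pooled peak was at the gene's own start for 10 of the 52, against 16 of the 180 receptor genes (8.89%) and 40.4% of all genes. Obp99b had its thresholded peak at its own start, at rank 1469, and that of Obp56f was at no start, at rank 2592. The genes Snmp1 and Snmp2 had no thresholded peak. Both had a pooled peak at their own start, at ranks 17267 and 10785, against 40.4% of all genes.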

How the data were processed

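The 4 deposited peak lists are on dm6: 1 per replicate, 1 from the pooled replicates and 1 thresholded by the irreproducible discovery rate, per the text files deposited with them. Those files name 1 control alignment for both replicates and the pool. It was not analysed here, and a bias in it would reach both replicates alike. The caller, its settings and the threshold were not stated in the sources used here. As deposited by the authors, a peak carries a signal value, used here as a score for ranking within a list. It also carries a −log10 q-value, set by the authors, which ran from 0.152 to 3.83 in the pooled list (median 0.661, and 0.522 near receptor genes), so that list includes weak calls. All 2862 thresholded peaks match the first 2862 pooled peaks. No read counts are given, so the depth is unknown. The labels give the replicate numbers and nothing on how embryo collections were separated.

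Summits (1-based) were placed against the Ensembl release 115 annotation of the same assembly, without transposable elements and with the starts of all transcripts of coding and non-coding genes. Rows that repeat an interval (6 in the thresholded list) were kept. A replicate's peak matched a pooled peak if they overlapped by at least 1 bp. Python 3.11.15, pandas 2.3.3, NumPy 2.4.6, pyfaidx 0.9.0.4 and matplotlib 3.10.9 were used, and the placement was tested on simulated data. The members, lists and alternatives were chosen with earlier results of these data known. Genes named are those with a thresholded peak and their nearest neighbour, the 5 highest pooled-only genes per family, the co-receptors, and up to 3 genes per family without a peak. Other genes in the text were named after their values were seen.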

Additional observations from a re-analysis of the deposited data

How the results depend on the processing

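The number of receptor genes with a thresholded peak followed the range added to each gene: 0 for the gene body alone (8.42% of all genes), 4 at 500 bp (20.9%), 9 at 1 kb (23.1%), 14 at 2 kb (28.2%) and 33 at 5 kb (39.8%). The peaks at a neighbour's start among them numbered 0, 3, 7, 11 and 26 at these ranges. The receptor share was under that of all genes at each of the 5 ranges. With the 1431 thresholded peaks of higher signal value, 5 receptor genes had a peak, and 4 of the 5 peaks were at a neighbour's start. Leaving out replicate 2 or replicate 3 gave 9 receptor genes each time, with 6 to 8 peaks at a neighbour's start. The pooled count of 50 was 19 for the gene body alone and 129 at 5 kb. It was 24 for pooled peaks that both replicates overlap by 1 bp and 20 where each covers at least 0.5 of the pooled peak. Placing any base of the peak gave 11 receptor genes with a thresholded peak, 8 peaks at a neighbour's start and 54 receptor genes with a pooled peak. Keeping 1 row per interval gave 9 receptor genes and 7 peaks at a neighbour's start in the thresholded list. The neighbour count was 6 with a start distance of 200 bp, 7 with 1 kb and 7 with coding starts alone. The pooled count was not recomputed under these last 4 settings, which were planned for the thresholded list. No paired analysis was possible because there is 1 group and no test. Unknown depth limits how weak a site these lists could show.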
